A study of Canis lupus familiaris with 2 samples.

Results

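The genes of fatty acid oxidation and of the peroxisome were examined in pressure-loaded kidney epithelium. Members were taken from a list of 39 gene symbols covering mitochondrial beta-oxidation, peroxisomal oxidation, the peroxins and the PPAR regulators, and 38 of them had a row among the 23510 features in the files. PHYH, which encodes the first enzyme of phytanic acid alpha-oxidation, was not analysed here. The cells were MDCK, an established canine kidney line that forms a columnar sheet on a semipermeable membrane and is usually likened to the distal nephron. Cells were plated at 40000 per culture insert and grown in serum-containing EMEM. In the control, the medium stood 2 cm high (2 cm H2O, labelled as no pressure), and in the loaded culture it stood 50 cm high (50 cm H2O), with the labels placing both at 3 days. No drug, transgene or deletion was involved. Each medium height was represented by 1 culture of this single cell line, so that no difference below could be set against replicate error and none was tested.

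Fatty acids are burned in mitochondria after carnitine palmitoyltransferases carry them in. A dehydrogenase, a hydratase, a hydroxyacyl dehydrogenase and a thiolase then remove acetyl-CoA in repeated rounds, and the electrons pass through the electron transfer flavoprotein to the respiratory chain. Peroxisomes shorten very long and branched fatty acids, destroy the hydrogen peroxide this makes with catalase, and import their enzymes with the peroxins. PPARA, PPARD and PPARG are nuclear receptors for lipids that switch on many of these genes, and PPARGC1A is their coactivator. In the kidney, the proximal tubule is the segment best known for using fatty acids as fuel.

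Levels were given as FPKM, the fragments on a gene scaled by the length of its exons and by library size, so that levels of different genes can be compared. Ratios were the FPKM of the 50-cm-high-medium culture over that of the 2-cm-high-medium culture, for genes with an FPKM above 1 in both. Of the 38 genes, 35 passed this minimum, as did 11057 of all features. Read totals were not given. Of 574 features that both cultures showed above 0 but below 0.1 FPKM, 219 shared a ratio of 1.0977 to within 0.2%, as 1 read in each culture would give, so that a read counted for 9.77% more FPKM in 50-cm-high medium. In the kidney tubule epithelium list, 10 of 11 markers were above 1 FPKM in both cultures, with KRT8 at 1641 and 1561 FPKM. CDH16 went from 1.96 to 0.676 FPKM and CLDN2, a claudin of leaky epithelia, from 35.5 to 17.2 FPKM. The 7 fibroblast markers summed to 0.374 and 0.401 FPKM and the 4 endothelial markers to 0.458 and 0.268 FPKM. Of the leukocyte markers, PTPRC and CD3E were listed at 0 in both cultures, and the list is not reported in full here.

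The program of fatty acid oxidation was broadly expressed in MDCK cells and differed little between the medium heights. The 38 genes summed to 1748 FPKM under 2 cm of medium and 1678 FPKM under 50 cm, a difference of -4.00%. The sum over all features differed by 2.27%, so that the share of the 38 genes in it was 0.291% and 0.273%. Of the 35 genes above the minimum, 12 were higher and 23 were lower in 50-cm-high medium (65.7% lower, against 47.4% of all features), and 24 to 25 were lower after quantile normalization or recentring. Their median log2 ratio was -0.14, against 0.01 for all features, and 28 of them (80.0%) differed by less than 1.2-fold, against 68.1% of all features. Among all features within the range of mean level spanned by these genes, 71.2% differed by less than 1.2-fold and 45.6% were lower. Within the interquartile range of their mean levels, a closer match, the shares were 74.6% and 40.7%, with a median log2 ratio of 0.05.

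No gene was more than 1.5-fold higher in 50-cm-high medium, where 2.13% of all features were, and none was more than 2-fold higher, where 0.389% were. DECR1 was the only gene more than 1.5-fold lower, 1 of 35, where 5.06% of all features were. None was more than 2-fold lower, where 1.28% of all features were. The background falls with level, since 95 of the 5177 features within the interquartile range of the mean levels of these genes were more than 1.5-fold lower, as were 197 of the 8751 features above 5 FPKM in both cultures, so that 1 of 35 gives no direction against the background.

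**Figure D1:**
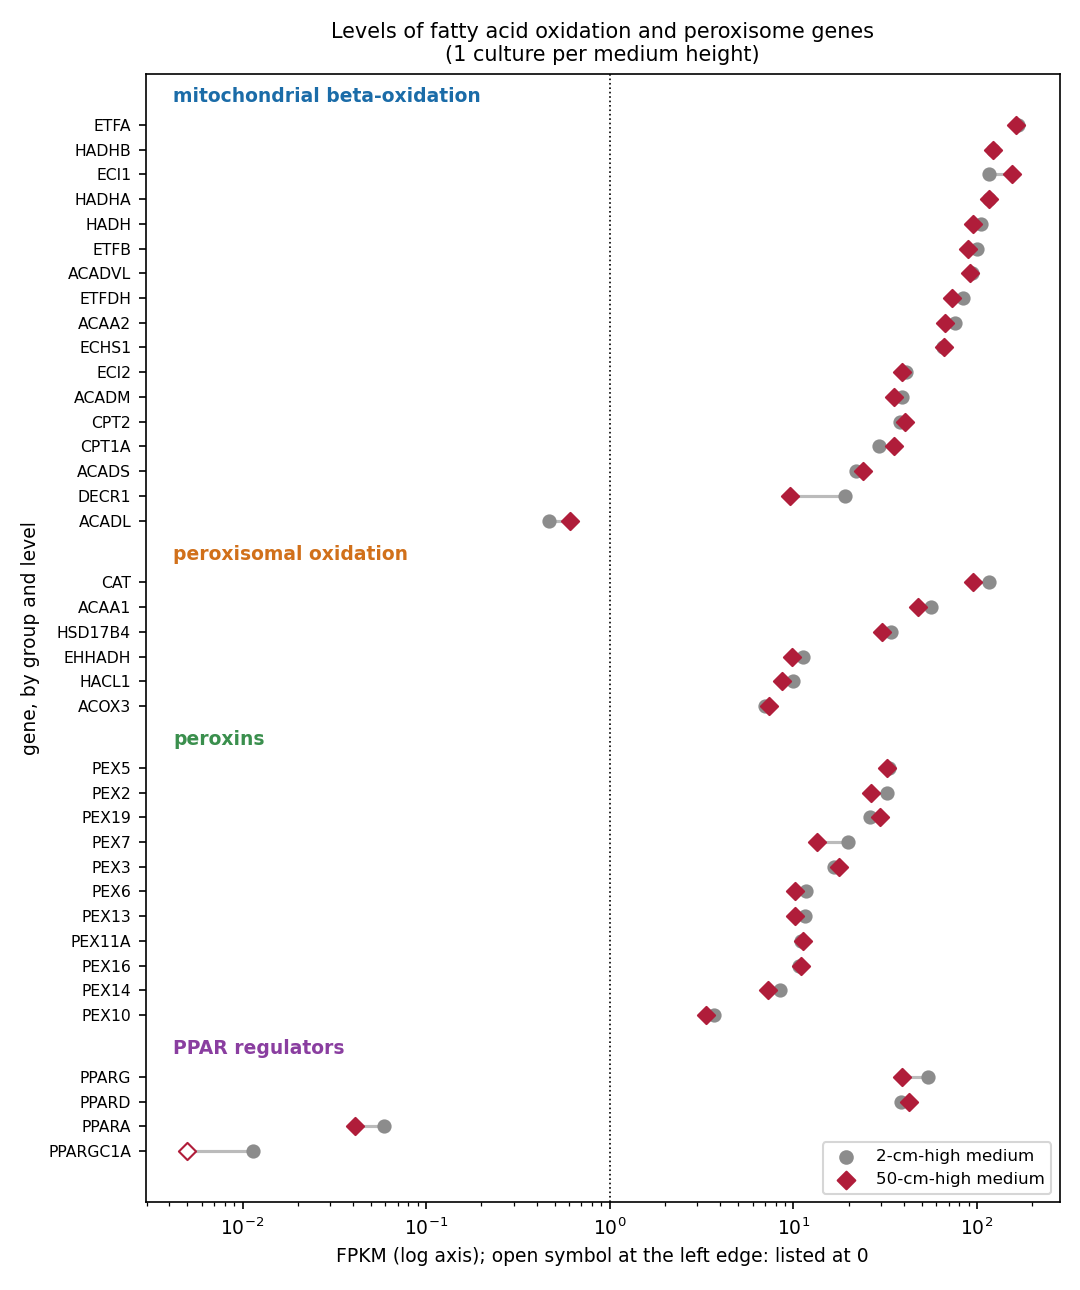
FPKM (log axis) of the 38 genes in 2-cm-high medium (circles) and 50-cm-high medium (diamonds), 1 culture each, ordered by level within each group, with a dotted line at 1 FPKM. Most symbols nearly coincide, DECR1 is the most separated of the well expressed genes, and ACADL, PPARA and PPARGC1A lie below the line.

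Mitochondrial beta-oxidation was the most abundant group. Its 17 genes summed to 1235 FPKM under 2 cm of medium and 1223 FPKM under 50 cm. The 16 genes above the minimum had a median log2 ratio of -0.04, with 6 higher and 10 lower (62.5% lower, against 47.4% of all features). Of these, 13 differed by less than 1.2-fold, and the exceptions were CPT1A, ECI1 and DECR1.

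The genes of the carnitine step went in both directions. CPT1A, the outer-membrane palmitoyltransferase that controls entry of long-chain fatty acids, had 29.2 FPKM under 2 cm of medium and 35.2 FPKM under 50 cm (ratio 1.21). CPT2, its partner on the inner membrane, had 38.0 and 40.4 FPKM (ratio 1.06). CPT1B, the muscle-type isoform and not one of the listed genes, was much less abundant and pointed the other way, with 7.02 and 5.23 FPKM (ratio 0.744). Of the 500 features nearest in level to CPT1B, 64 had a lower ratio. SLC25A20, the carnitine-acylcarnitine carrier, and CRAT, the carnitine acetyltransferase, also outside the list, were lower as well, with ratios of 0.913 and 0.904. The level of CPT1A was thus 4.16 times that of CPT1B in 2-cm-high medium and 6.74 times in 50-cm-high medium.

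The acyl-CoA dehydrogenases, which open each round and differ in the chain length they accept, did not move together. ACADVL, for very long chains, had 93.5 and 91.5 FPKM (ratio 0.978). ACADM, for medium chains, had 38.8 and 35.3 FPKM (ratio 0.909), and ACADS, for short chains, had 22.02 and 23.96 FPKM (ratio 1.09). ACADL, the long-chain enzyme, stayed below the minimum, with 0.466 and 0.605 FPKM, so that its ratio was not counted.

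Of the later steps of the spiral, HADHA, HADHB and ECHS1 were nearly level between the cultures, and HADH and ACAA2 were lower. HADHA and HADHB, the alpha and beta subunits of the trifunctional protein, had 115.6 and 116.5 FPKM and 122.2 and 122.1 FPKM, with ratios of 1.01 and 0.999, too near 1 to give a direction. The level of HADHA relative to HADHB was 0.946 under 2 cm and 0.954 under 50 cm. The subunit genes are next to each other in the RefSeq dog gene table of assembly UU_Cfam_GSD_1.0. ECHS1, the short-chain hydratase, had 65.5 and 65.9 FPKM (ratio 1.01), likewise near 1. HADH, the short-chain hydroxyacyl dehydrogenase, had 105.6 and 95.3 FPKM (ratio 0.902), and ACAA2, a mitochondrial thiolase, had 76.3 and 67.3 FPKM (ratio 0.883).

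The auxiliary enzymes, needed for unsaturated fatty acids only, held both extremes of the whole set. DECR1 encodes 2,4-dienoyl-CoA reductase, which reduces the conjugated double bonds left when polyunsaturated fatty acids are degraded. Its level was 19.01 FPKM under 2 cm of medium and 9.54 FPKM under 50 cm, giving a ratio of 0.502 (log2 ratio -0.995). It ranked 144 from the lowest among the 11057 features, just short of the 2-fold limit. Of the 500 features nearest in mean log2 level, 3 had a lower ratio and 497 a higher one. In the order of level among the 38 genes, DECR1 moved from rank 25 to rank 31, the largest shift of any of them.

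ECI1, an enoyl-CoA isomerase that shifts double bonds of unsaturated chains into the position the hydratase can use, had the highest ratio. It had 115.7 FPKM under 2 cm of medium and 154.7 FPKM under 50 cm (ratio 1.34), and 26 of the 500 features nearest in level had a higher ratio. ECI2, a related isomerase, had 41.0 and 39.0 FPKM (ratio 0.952). The level of DECR1 relative to ECI1 was therefore 0.164 under 2 cm and 0.0616 under 50 cm. DECR2, the peroxisomal reductase of the same type and not one of the listed genes, had 4.76 and 5.11 FPKM (ratio 1.07). NBN, the neighbour of DECR1 in the RefSeq table, had 19.4 and 19.1 FPKM.

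The genes that pass electrons on were all lower by small amounts. ETFA, the alpha subunit of the electron transfer flavoprotein, had the highest level of all 38 genes in both cultures, 167.6 and 163.0 FPKM (ratio 0.973). ETFB, the beta subunit, had 100.5 and 89.8 FPKM (ratio 0.894), and ETFDH, the dehydrogenase that hands the electrons to ubiquinone, had 84.2 and 73.2 FPKM (ratio 0.869).

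**Figure D2:**
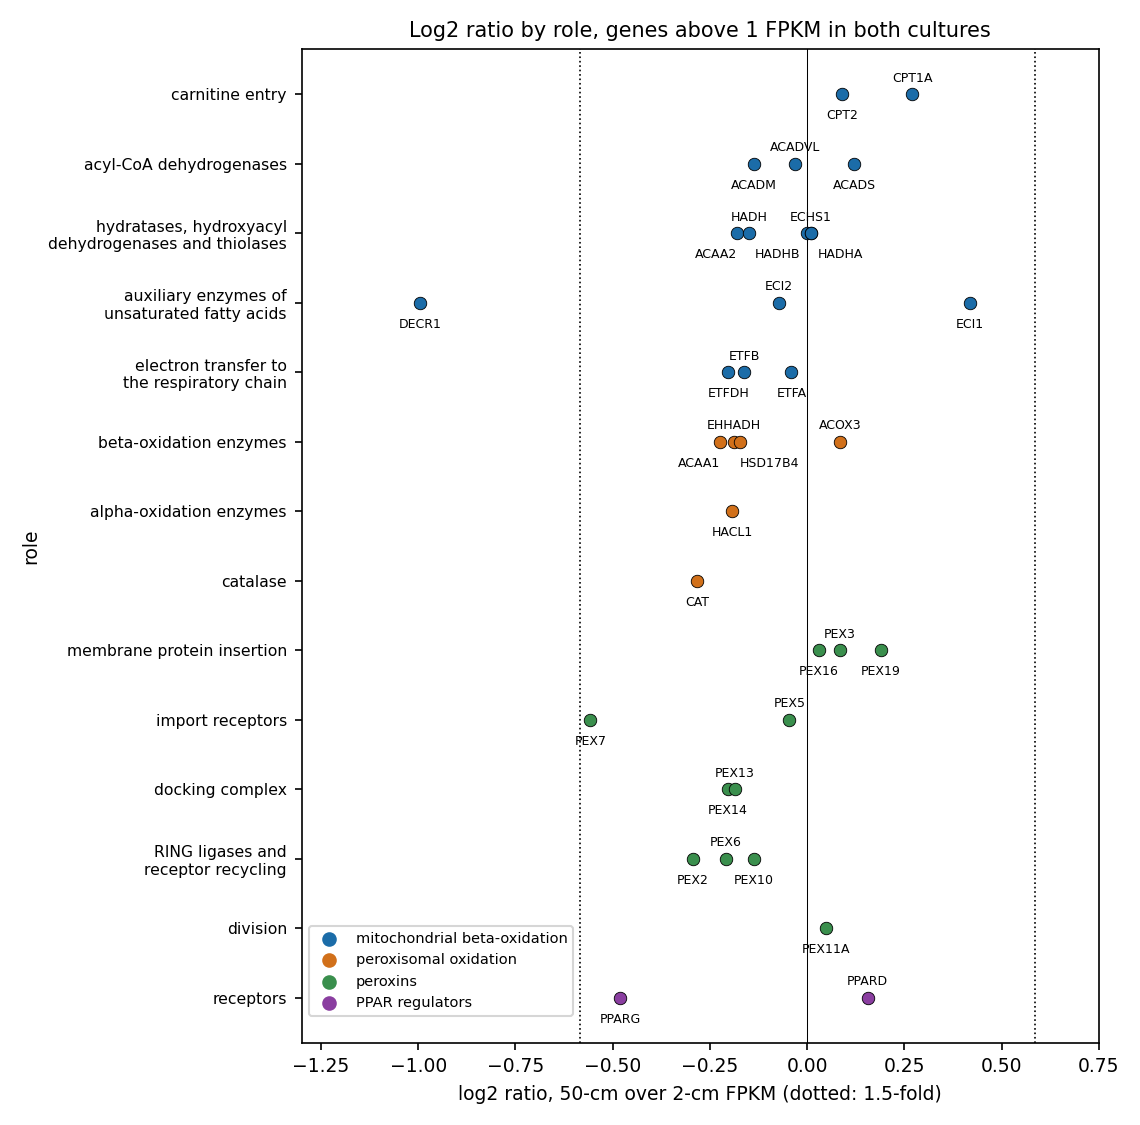
Log2 ratio of 50-cm over 2-cm FPKM for the 35 genes above 1 FPKM in both cultures, 1 point per gene, by role, with dotted lines at 1.5-fold. Only DECR1 lies outside the dotted lines, ECI1 lies farthest to the right at 0.42, and the peroxisomal enzymes gather between -0.28 and 0.08.

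Peroxisomal oxidation was lower in 5 of 6 genes, all by less than 1.5-fold, where 47.4% of all features were lower. The 6 genes summed to 234.5 FPKM under 2 cm of medium and 199.8 FPKM under 50 cm, a difference of -14.8%, against 2.27% for the sum of all features. Their median log2 ratio was -0.19. CAT, encoding catalase, made up most of the difference, with 116.1 and 95.5 FPKM (ratio 0.822).

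Along the peroxisomal beta-oxidation path, ACOX3, an oxidase of branched chains, was the exception, with 6.976 and 7.396 FPKM (ratio 1.06). EHHADH, the bifunctional enzyme of straight chains, had 11.2 and 9.86 FPKM (ratio 0.878). HSD17B4, the bifunctional enzyme used for branched and very long chains, had 34.2 and 30.4 FPKM (ratio 0.887). ACAA1, a peroxisomal thiolase, had 55.9 and 47.9 FPKM (ratio 0.857). HACL1, the lyase that splits 2-hydroxy fatty acids in alpha-oxidation, had 9.95 and 8.70 FPKM (ratio 0.875). ACAA1 and ACAA2 were lower by a similar proportion, and the level of ACAA1 relative to ACAA2 was 0.733 and 0.712. HADHB of the mitochondrial trifunctional protein (ratio 0.999) and peroxisomal SCP2, outside the list (58.0 and 56.6 FPKM, ratio 0.976), were nearly level. None of these ratios lay outside the 5th to 95th percentile of the 500 features nearest in level, which for CAT ran from -0.36 to 0.43 on the log2 scale.

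The peroxins went in both directions. All 11 were above the minimum, and 4 were higher and 7 lower (63.6% lower, against 47.4% of all features), with a median log2 ratio of -0.14. The 3 that place proteins in the peroxisomal membrane were each slightly higher in 50-cm-high medium. PEX19, the chaperone for membrane proteins, had 26.2 and 29.8 FPKM (ratio 1.14). PEX3, its docking site, had 16.7 and 17.7 FPKM (ratio 1.06), and PEX16 had 10.72 and 10.95 FPKM (ratio 1.022). PEX11A, which takes part in peroxisome elongation and division, had 11.0 and 11.3 FPKM (ratio 1.04).

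The 7 peroxins that import enzymes into the matrix were each lower, except that PEX10 was slightly higher after quantile normalization (log2 ratio 0.02). PEX7, the receptor for enzymes with the N-terminal targeting signal, among them the thiolase ACAA1, had 19.7 FPKM under 2 cm of medium and 13.4 FPKM under 50 cm. Its ratio of 0.680 was the second lowest of the set, and 15 of the 500 features nearest in level had a lower one. PEX5, the receptor for the C-terminal signal and a helper of PEX7, had 33.2 and 32.2 FPKM (ratio 0.969). The level of PEX5 relative to PEX7 was therefore 1.68 under 2 cm and 2.40 under 50 cm.

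Of the docking complex, PEX13 had 11.6 and 10.2 FPKM (ratio 0.879) and PEX14 had 8.41 and 7.30 FPKM (ratio 0.868). PEX2 and PEX10 encode RING proteins of the ubiquitin ligase that releases the receptors, and PEX6 the ATPase that extracts them. PEX2 had 32.4 and 26.5 FPKM (ratio 0.816), PEX10 had 3.68 and 3.34 FPKM (ratio 0.910), and PEX6 had 11.7 and 10.2 FPKM (ratio 0.865). PEX10 had the lowest level of the group, where the ratios of the nearest 500 features spread widely, from -0.93 to 0.52 at the 5th and 95th percentile on the log2 scale. Of the PEX genes outside the list, PEX11G, a relative of PEX11A, had a ratio of 0.737, opposite in direction to PEX11A, and PEX26 had a ratio of 0.768. Of the 500 features nearest in level, 114 and 89 had a lower ratio.

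**Figure D3:**
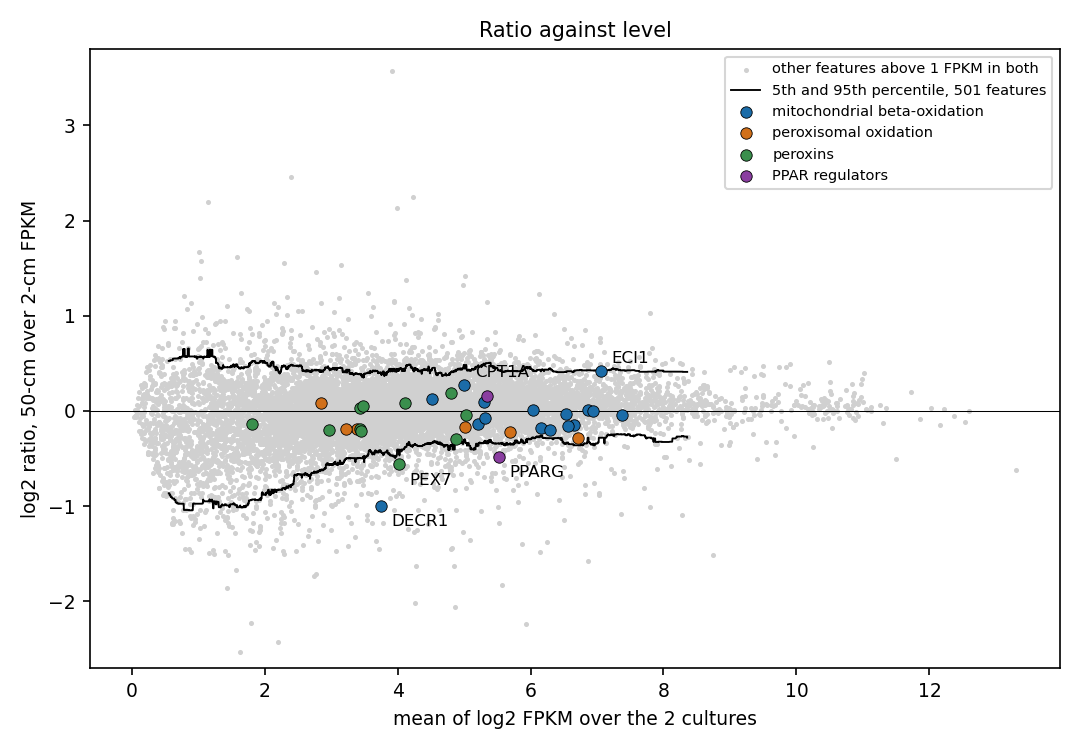
Log2 ratio against the mean log2 FPKM of the 2 cultures for all features above 1 FPKM in both (grey) and the 35 genes (coloured by group), with running 5th and 95th percentiles as lines. DECR1, PEX7 and PPARG lie below the lower line, none of the 35 lies above the upper line, and ECI1 touches it.

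The PPAR receptors exchanged their order. PPARG, the receptor best known from adipocytes and also present in renal collecting duct, had 54.4 FPKM under 2 cm of medium and 39.0 FPKM under 50 cm (ratio 0.717). Of the 500 features nearest in level, 13 had a lower ratio. PPARD, the widely expressed receptor, had 38.4 and 42.8 FPKM (ratio 1.11). PPARG was 1.41 times as abundant as PPARD under 2 cm and 0.911 times as abundant under 50 cm.

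The receptor most tied to fatty acid oxidation in liver and proximal tubule was scarcely detected. PPARA had 0.0588 and 0.0407 FPKM. PPARGC1A had 0.0115 FPKM in 2-cm-high medium and was listed at 0 in 50-cm-high medium, and at such levels single reads decide a ratio. RXRA, a common partner of the PPARs, had 17.1 and 18.9 FPKM (ratio 1.10), so that PPARD relative to RXRA was 2.25 and 2.27. RXRB, of the same family, pointed the other way, with 10.8 and 8.24 FPKM (ratio 0.766). Of the 500 features nearest in level to RXRB, 44 had a lower ratio.

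**Figure D4:**
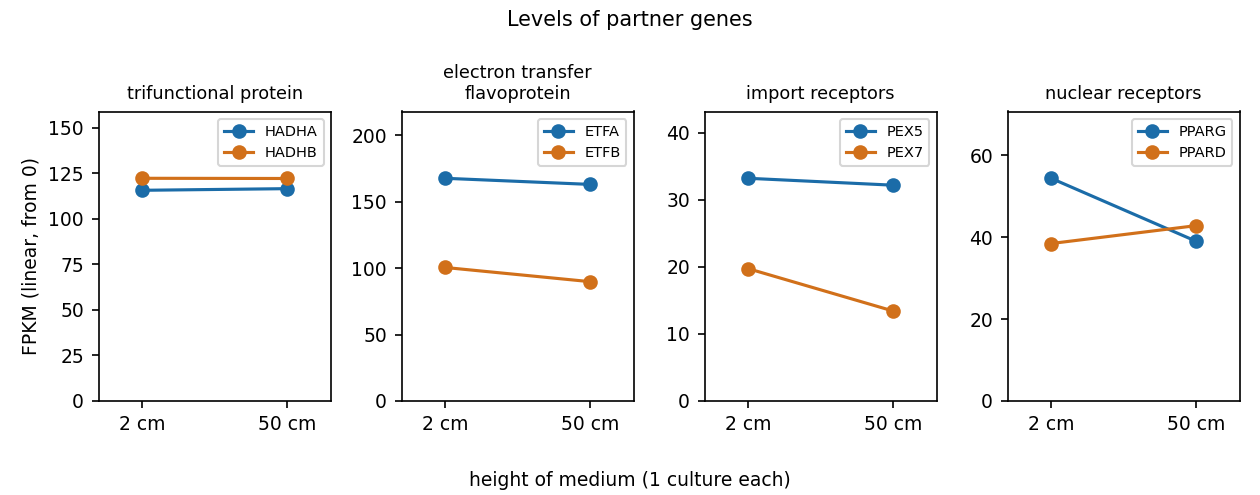
FPKM (linear axes from 0) of 4 pairs of genes that work together or are related, in the culture at each medium height. The lines of HADHA and HADHB are flat, those of ETFA and ETFB run nearly parallel, PEX7 is lower in 50-cm-high medium while PEX5 is nearly level, and the lines of PPARG and PPARD cross.

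Compared with all features of similar level, 3 of the 35 genes, DECR1, PEX7 and PPARG, lay below the 5th percentile of their 500 nearest features and 0 lay above the 95th. By construction, those limits leave 5% of features beyond each. In a bulk culture, fewer cells with a transcript and less of it in each cell cannot be told apart.

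Genes related to the pathway or to the peroxisome, but outside the list, were counted by the same rule. Not all of them act in fatty acid oxidation. Fatty acid uptake and activation stood lower in 50-cm-high medium in most of its genes. Of its 9 genes above the minimum, 7 were lower, 3 of them by more than 1.5-fold, and the median log2 ratio was -0.44. Of all features, 47.4% were lower and 5.06% were more than 1.5-fold lower, and the counts of the further lists are to be read against the same shares. FABP3, a cytosolic carrier of fatty acids, had 726 FPKM under 2 cm of medium and 255 FPKM under 50 cm (ratio 0.351), and 0 of the 500 features nearest in level had a lower ratio. ACSF2, an acyl-CoA synthetase of mitochondria, had 53.9 and 33.3 FPKM (ratio 0.617). SLC27A3, of the fatty acid transport protein family, had 2.89 and 1.75 FPKM (ratio 0.606), and SLC27A1, of the same family, had 7.89 and 5.80 FPKM (ratio 0.735). At these lower levels ratios spread more widely, and 55 and 54 of the 500 features nearest in level had a lower ratio. The lipid scavenger receptor gene CD36 was listed at 0 in both cultures.

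Of 20 other mitochondrial enzymes above the minimum, 14 were lower and none passed 1.5-fold. Their median log2 ratio was -0.14, against -0.04 for the 16 listed mitochondrial genes above the minimum. Besides CPT1B, the largest differences were those of the thioesterase ACOT2 (2.26 and 1.65 FPKM), the ketone body thiolase ACAT1 (100.1 and 78.5 FPKM) and ACAD8, of valine breakdown (20.7 and 16.3 FPKM). For ACOT2, 148 of the 500 features nearest in level had a lower ratio.

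Of 25 other peroxisomal enzymes and transporters, 19 were lower, 1 by more than 1.5-fold, with a median log2 ratio of -0.16. IDH1, which makes NADPH in cytosol and peroxisome, had 79.2 and 47.0 FPKM (ratio 0.593). DAO, the peroxisomal D-amino acid oxidase, had 455 and 310 FPKM (ratio 0.681), and NUDT7 and PIPOX had ratios of 0.707 and 0.731. DAO was more abundant than any of the 38 listed genes in both cultures. Of 6 other peroxins and division factors, 5 were lower, with a median log2 ratio of -0.09, and the list is not reported in full here.

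PPAR partners and other regulators had a median near that of all features. Of 17 above the minimum, 10 were higher, and the median log2 ratio was 0.05. PPRC1, a relative of PPARGC1A, had 14.5 and 22.2 FPKM (ratio 1.53), and ESRRA, a nuclear receptor of mitochondrial genes, had 46.5 and 63.6 FPKM (ratio 1.37). PRKAA2, a catalytic subunit of AMP-activated kinase, had 2.04 and 1.402 FPKM (ratio 0.687), and the coactivator NCOA1 had 5.80 and 4.08 FPKM (ratio 0.705). Of the 500 features nearest in level, 118 and 59 had a lower ratio. PRKAA1, the other catalytic subunit of the kinase, was more abundant and nearly level, with 23.93 and 23.91 FPKM (ratio 0.999).

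PPAR target genes outside oxidation went in both directions. Of 20 with a row, only 9 were above the minimum. Of these, 6 were higher, and the median log2 ratio was 0.31. The minimum also bears on this median, since UCP2, with 1.31 and 0.755 FPKM, was left out for its lower level in 50-cm-high medium. The median thus says nothing of the targets under the minimum. ANGPTL4, an inhibitor of lipoprotein lipase, had 5.58 and 9.91 FPKM (ratio 1.78), and 3 of the 500 features nearest in level had a higher ratio. IMPA2 had 4.25 and 5.95 FPKM (ratio 1.3999). CYP4A11, listed here for a fatty acid hydroxylase whose family has close copies that can share reads, had 29.4 and 12.2 FPKM (ratio 0.414). AQP3, a glycerol channel, had 3.63 and 2.53 FPKM (ratio 0.697). Of the 500 features nearest in level, 2 had a lower ratio than CYP4A11 and 93 a lower one than AQP3. PDK4, a classical target of PPARA, was below the minimum in both cultures.

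The 8 proximal tubule markers summed to 17.1 and 11.4 FPKM, and 3 of them were above the minimum in both cultures. LRP2, SLC22A6 and SLC22A8 were listed at 0 in both. MIOX, an oxygenase of inositol found in proximal tubule, had 9.61 and 4.45 FPKM (ratio 0.464), SLC5A2 had a ratio of 0.884 and CUBN of 1.09. MIOX was lower alongside DAO, PIPOX and the peroxisomal enzymes, and its part in those results was not tested.

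**Figure D5:**
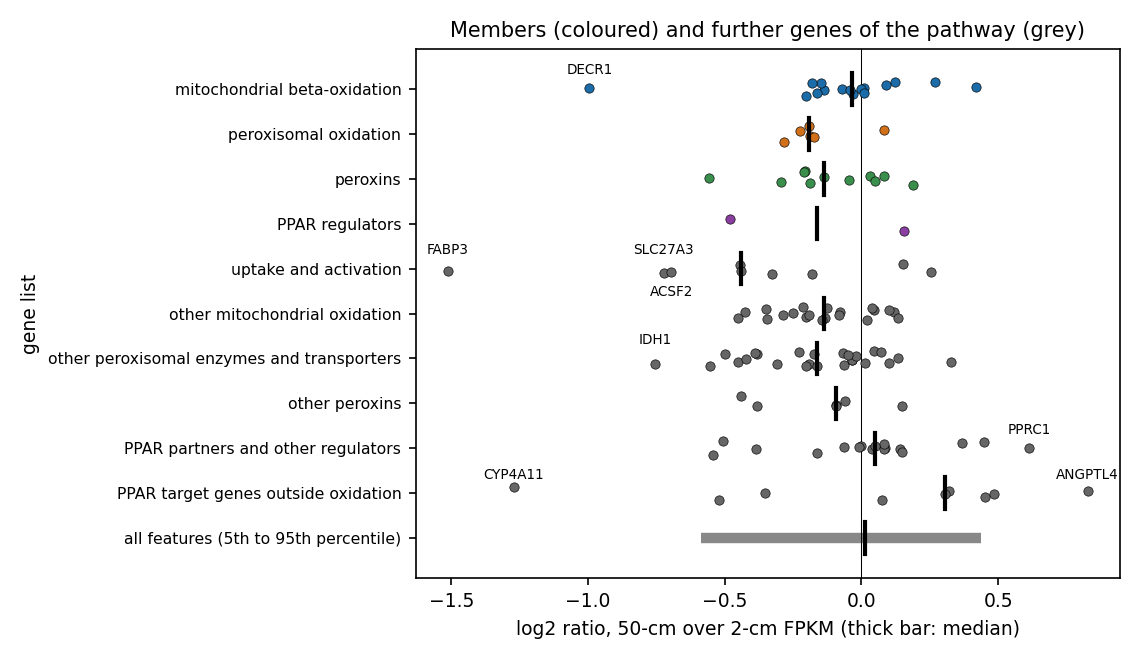
Log2 ratio of 50-cm over 2-cm FPKM for the 4 groups of listed genes (coloured) and 6 lists of further genes (grey), 1 point per gene above 1 FPKM in both cultures, with the median as a thick bar and the 5th to 95th percentile of all features at the bottom. The uptake and activation list has the lowest median, -0.44, with FABP3 far to the left. The PPAR target list has the highest, 0.31, from 9 of its 20 genes with a row.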

How the data were processed

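RNA was measured in 2 MDCK cultures, 1 per medium height. The authors prepared stranded TruSeq libraries, read 75 bases from single ends, mapped them to CanFam3.1 with TopHat2 2.0.13, Bowtie2 2.2.3 and SAMtools 0.1.19, and deposited FPKM values from Cuffnorm 2.2.1. The annotation and the scaling method are not given in the sources used here. Read counts were not used here, and precision at a given FPKM is unknown. No pseudocount was added to the ratios, which were limited to features over 1 FPKM at both heights and counted past 1.5-fold and 2-fold. With 1 culture per group no test was run. A few genes of the further and marker lists were left out of the lists and are not reported here. The 500 features nearest in mean log2 FPKM described the spread across genes, not error. Named genes were members past 1.5-fold, the extremes and highest level of each group, partners, members under the minimum, and at most 4 genes of each further list by size of ratio. Further members, the relatives and neighbours of members, and a few genes of the further lists, some of them under the minimum, were added to these after their values were seen. Members and lists were chosen with earlier results of these data known. Alternatives were other FPKM minimums, pseudocounts, recentring and quantile normalization. Scripts, tested on simulated data, ran in Python 3.11.15 with numpy 2.4.6 and pandas 2.3.3.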

Additional observations from a re-analysis of the deposited data

How the results depend on the processing

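The 9 summaries (the median log2 ratio of each of 4 groups and of all members, and the counts past 1.5-fold and 2-fold in each direction) were recomputed under 7 alternatives, and 61 of the 63 values differed from the reported ones by less than 0.1 on the log2 scale or, for counts, by no more than 1.5 times. Recentring the log2 ratios on their median of 0.01 put DECR1 past 2-fold, so that the count of genes more than 2-fold lower became 1 in place of 0. Accepting any FPKM above 0 in both cultures added PPARA, at 0.0588 and 0.0407 FPKM, to the PPAR regulators, whose median then moved to -0.48 over 3 genes. For 19 single genes, among them DECR1, PEX7, PPARG and ECI1, 127 of 132 recomputed log2 ratios moved by less than 0.1 with the same sign. Much of this was fixed in advance. Another FPKM minimum cannot alter the ratio of a gene it keeps, and recentring shifts every ratio by the same 0.01. Only the pseudocounts and quantile normalization could move a single gene by more. HADHA and ECHS1 changed sign on recentring (-0.0034 and -0.0045) and with quantile normalization (-0.0556 and -0.0452), and PEX10 changed sign and moved most with quantile normalization, to 0.0168. The single culture per medium height and the unknown read depth leave no error for any ratio, and small differences have no measure of reliability here. No paired analysis was possible because each group has 1 sample.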
